A study of Mus musculus with 10 samples.

Results

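The genes followed here are 9 transcription factors that shape the identity of developing T cells: Tcf7, Lef1, Bcl11b, Runx1, Satb1, Ikzf1, Bach2, Ets1 and Myb. All 9 had a row among the 35375 features of the thymus RNA-seq count table, and all 9 were among the 19511 features that passed the filter on low counts. Members were found by Ensembl gene ID, and Bach2 was picked for its steep fall in homozygous KO thymus, so its levels in that comparison are given as a description without a test. The other 8 were listed for their known role and were tested.

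The study removed Usp7, a deubiquitinase gene also called HAUSP, in the hematopoietic system of mice on a C57BL/6J strain background. Ribosome-depleted total RNA of whole thymus was sequenced on day 3 after birth from 3 homozygous KO, 3 heterozygous KO and 4 wild-type samples. According to the series design, 2 of the wild-type samples carried cre induction and 2 did not, and which libraries these are is not given in the sources used here. The column names of wild type 3 and 4 add het, and those of wild type 1 and 2 do not. What het stands for there is not given. The promoter that drives Cre is not given either, nor is the part of Usp7 that was removed. Each library has its own animal number in the titles, and no source says whether animals shared a litter.

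TCF1, the protein of Tcf7, and its relative LEF1 are HMG-box proteins that bind the same DNA motif and start and maintain the T-cell program, in part with β-catenin or with Groucho/TLE co-repressors. BCL11B is a zinc finger factor needed for commitment to the T lineage. RUNX1, ETS1 and MYB open enhancers of the T-cell receptor genes and of the coreceptors, Ikaros (Ikzf1) recruits chromatin remodellers, and SATB1 folds chromatin loops and is abundant in double-positive thymocytes. BACH2 is a basic leucine zipper repressor that pairs with small MAF proteins, competes with AP-1 at shared sites and restrains effector programs in T cells. It is also a well-known factor of B cells, so bulk thymus RNA can contain Bach2 transcripts from more than 1 cell type.

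Libraries held between 39833850 and 122380785 counts. Wild type 1 and 2 held 39833850 and 41018941 counts, and every other library held at least 80962924. Wild type 1 and 2 are also the libraries with 2 wt in the title, so splits of the wild types by title are splits by depth too. Levels are given as CPM, the share of a gene in the library's counts, scaled by the TMM method. Usp7 itself was lower in every knockout library than in any wild-type library. It stood at 303, 422 and 408 CPM in homozygous KO, at 472, 516 and 516 CPM in heterozygous KO, and at 676, 670, 594 and 589 CPM in wild type. The values of 594 and 589 CPM are those of wild type 3 and 4. Homozygous KO thymus therefore retained 59.7% of the wild-type Usp7 level and heterozygous KO thymus 79.2%. An exact permutation test of mean log2 CPM gave two-sided p = 0.0286 for each knockout against wild type, which is the smallest value 3 against 4 samples allow. Thymus markers were present at high levels in all libraries: Rag1, which cuts the T-cell receptor genes for recombination, lay between 3328 and 6622 CPM. Xist was abundant in wild type 2 to 4 and homozygous KO 3 (1913 to 2459 CPM) and at most 1.12 CPM in the other 6 libraries, so sex was not balanced between genotypes and no heterozygous KO library had Xist.

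In wild-type thymus the 9 genes spanned a wide range of levels. Per kilobase of exon, Tcf7 was the highest at 1089 ± 62.3 CPM per kb (SD, n = 4). Ets1 followed at 186 ± 2.31, Ikzf1 at 168 ± 4.57, Satb1 at 144 ± 5.54 and Bcl11b at 136 ± 9.25 CPM per kb. Only Satb1 and Bcl11b, among neighbours in this order, overlapped over the wild-type libraries. Myb reached 77.8 ± 5.98, Lef1 63.4 ± 5.90 and Runx1 26.0 ± 2.20 CPM per kb, and Bach2 was last at 4.96 ± 0.420 CPM per kb. Bach2 therefore belonged to a different level class: by wild-type CPM it ranked 4545 among the 19511 tested features, whereas the other 8 ranked between 10 and 562. The order of the 9 genes was the same in all 3 genotypes. Together the 9 genes took between 0.951% and 1.12% of the counts of a library.

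**Figure D1:**
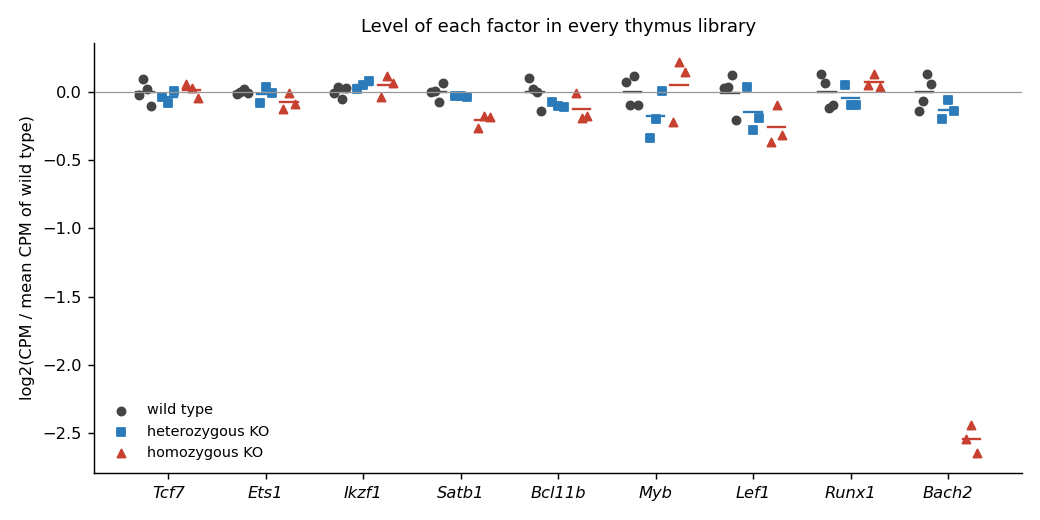
Level of each of the 9 genes in every library, as log2 of its CPM over the mean CPM of the 4 wild-type libraries. Points are libraries, short lines are means of the plotted values, and genes are ordered by wild-type CPM per kb. The 3 homozygous KO points of Bach2 lie far below those of every other gene, while the other genes stay close to 0 in all 3 genotypes.

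Bach2 (ENSMUSG00000040270, chr4:32238804-32586108, plus strand, GRCm38) was present at 44.8, 47.1, 54.1 and 51.3 CPM in the wild-type libraries. It stood at 43.0, 47.4 and 44.9 CPM in heterozygous KO and at 8.44, 9.09 and 7.86 CPM in homozygous KO. The 3 homozygous KO libraries lay close together, at a coefficient of variation of 7.26%, and far below the other 7. The homozygous KO mean was 17.2% of the wild-type mean, a 5.83-fold lower level, and comparing single libraries of the 2 groups gave between 4.93-fold and 6.89-fold. The fitted difference was −2.54 on the log2 scale, and −2.41 against heterozygous KO, which uses the same homozygous KO libraries. Between 709 and 4809 reads were counted for Bach2 in a library, so the value does not rest on a handful of reads. Ordered from the most negative fitted difference among the 10557 tested features whose log2 CPM averaged 2 or more, Bach2 ranked 47.

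The titles number the animals, and the numbers were split here into 2 runs, 44 to 51 and 56 to 63. No label gives this split. Each run holds all 3 genotypes, with 1 homozygous KO library in the first and 1 wild-type library in the second. Bach2 in homozygous KO minus wild type was −2.52 within the animals numbered 44 to 51 and −2.60 within those numbered 56 to 63. Over 17 alternative settings, which included leaving out each homozygous KO or wild-type library in turn, the difference ranged from −2.64 to −2.44. These values come from the comparison that picked Bach2 and are a description.

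In heterozygous KO thymus the Bach2 level was not distinguishable from wild type. This comparison was not used to pick the gene, although it shares the wild-type libraries with the one that was. The heterozygous KO mean of 45.1 ± 2.21 CPM (SD, n = 3) was 91.4% of the wild-type mean of 49.3 ± 4.17 CPM (SD, n = 4), and the libraries of the 2 groups overlapped. The fitted log2 difference was −0.13 with a 95% interval of −0.31 to 0.05, and edgeR's quasi-likelihood test gave an adjusted p of 0.786. It was −0.08 without wild type 3 and −0.09 without heterozygous KO 1, −0.23 against the wild types with 1 wt in the title and −0.03 against those with 2, and over all 17 alternatives the adjusted p was at least 0.647. An exact two-sided permutation test over the 7 libraries gave p = 0.257.

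Among features with an average log2 CPM of 2 or more, 3 genes had library profiles nearest to that of Bach2, measured as the root mean square difference of log2 CPM centred on wild type over the 10 libraries. Coro2b, a coronin family gene, was the nearest at 0.156, followed by Wdfy4 at 0.186 and Itm2a at 0.202. Coro2b stood at 17.8, 21.3, 18.1 and 20.5 CPM in wild type and at 3.17, 3.76 and 3.06 CPM in homozygous KO. Wdfy4 lay between 58.4 and 77.1 CPM in wild type and between 9.18 and 11.3 CPM in homozygous KO. Itm2a, a membrane protein gene, lay between 115 and 163 CPM in wild type and between 22.6 and 31.2 CPM in homozygous KO. All 3 were picked for their likeness to Bach2, so their levels are a description; each had heterozygous KO libraries near the wild-type values.

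**Figure D2:**
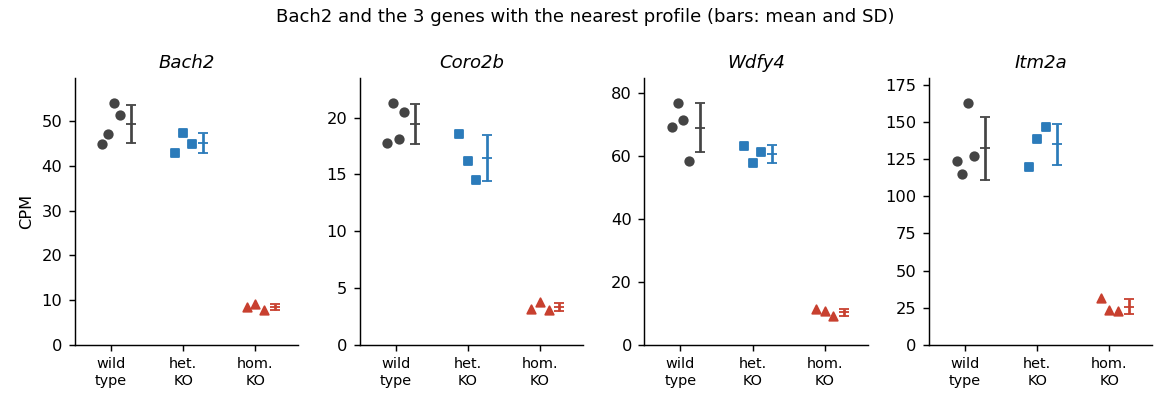
CPM of Bach2 and of the 3 genes with the nearest profile, Coro2b, Wdfy4 and Itm2a, in every library (points), with the mean and SD of each genotype beside them. In each panel the heterozygous KO libraries overlap the wild-type range and the 3 homozygous KO libraries lie far below both.

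The share of genes called around Bach2 was near that of all tested features. Within 1 Mb of Bach2, 19 other features were tested. Of these, 4 fell and 1 rose in homozygous KO against wild type at an adjusted p under 0.05, where 25.8% of all tested features passed. The 4 that fell include Bach2os, which lies within Bach2 itself, so its call is not separate from the fall that picked Bach2. Bach2it1, also within Bach2, is among the 19 and did not pass. Ankrd6, which encodes an ankyrin repeat protein, stood at 40.4 ± 4.66 CPM in wild type (SD, n = 4) and at 16.7 ± 1.47 CPM in homozygous KO (SD, n = 3). Its log2 difference was −1.28 with an edgeR adjusted p of 8.99e-06. Map3k7, the gene of the kinase TAK1, rose by 0.31 on the log2 scale with an adjusted p of 0.000606. The immediate neighbour Casp8ap2, 29.3 kb away, had a log2 difference of 0.19 with an adjusted p of 0.158. Bach2os lies antisense within the Bach2 gene and went from 0.994 to 0.105 CPM, a log2 difference of −3.22, given as a description like that of Bach2. Whether the counting used strand is not given in the sources used here, so reads of Bach2 and of Bach2os cannot be told apart. The same holds for Tcf7 with A630014C17Rik, which was counted at 35.1 CPM in wild type, and for Ikzf1 with Gm12000, at 12.4 CPM. These neighbours were listed by position, and Ankrd6, Map3k7, Casp8ap2 and Bach2os were chosen for mention after their values were seen.

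The 8 other factors had small fitted differences between homozygous KO and wild type. Of all tested features, 25.8% passed an adjusted p under 0.05 in this comparison (12.5% higher and 13.2% lower), and 32.7% had homozygous KO and wild-type libraries that did not overlap. Of the 8 factors 1 fell, Satb1, and none rose, although 2 had an unadjusted p under 0.05. Satb1 was also the only 1 of the 8 whose homozygous KO and wild-type libraries did not overlap. The median absolute log2 difference of the 8 was 0.0733, against 0.271 over all tested features, and all 8 fitted differences lay between −0.26 and 0.07. These medians were not matched for level: by wild-type CPM the 8 ranked between 10 and 562 among all tested features. The 95% intervals of the 8 ran from −0.47 at the lowest bound to 0.30 at the highest bound.

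**Figure D3:**
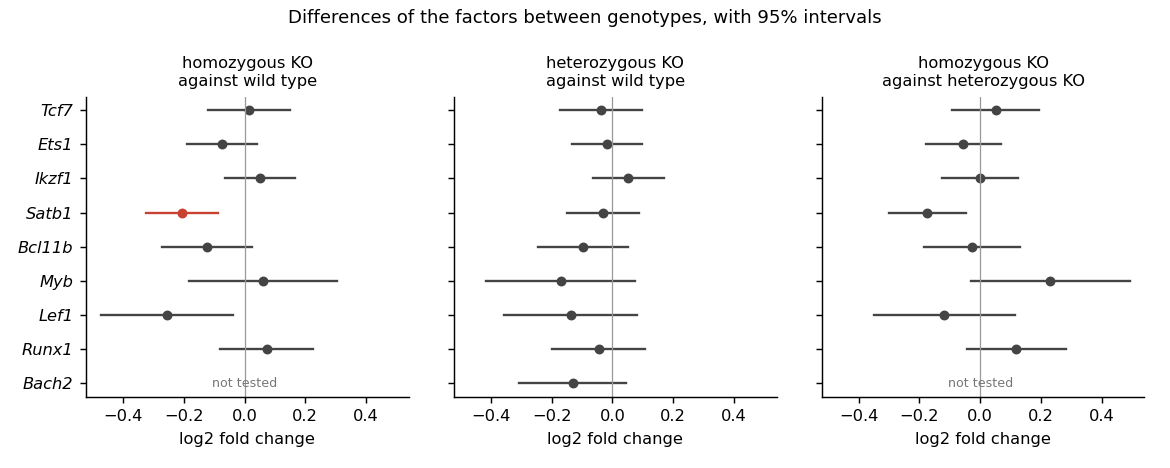
Fitted log2 fold changes of the factors with 95% intervals in the 3 comparisons of genotypes; red marks an adjusted p under 0.05 in edgeR's quasi-likelihood test. Satb1 in homozygous KO against wild type is the single red value, at −0.21, and Bach2 is drawn only for heterozygous KO against wild type because it was picked for its fall in homozygous KO.

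Satb1 (ENSMUSG00000023927, chr17:51736187-51833290, minus strand, GRCm38), the chromatin organiser, stood at 2737, 2751, 2609 and 2867 CPM in wild type. In homozygous KO it stood at 2287, 2431 and 2411 CPM, and in heterozygous KO at 2689, 2683 and 2670 CPM. Every homozygous KO library was below every other library, although the gap was small: the homozygous KO mean was 86.7% of the wild-type mean. The fitted log2 difference was −0.21 (SE 0.05, 95% interval −0.32 to −0.09), with an adjusted p of 0.0166 in edgeR. The difference was −0.24 within the animals numbered 44 to 51 and also −0.24 within those numbered 56 to 63. With Xist as a covariate it was −0.20 with an adjusted p of 0.0305. The fit to the homozygous KO and wild-type libraries alone gave −0.21 with an adjusted p of 0.0521, and the comparison with only the 2 wild-type libraries that have 1 wt in their titles gave −0.20 with an adjusted p of 0.0914, so the call was lost in both at a similar difference.

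The TCF/LEF pair differed little. Tcf7 (chr11:52252371-52283014, GRCm38) stood at 2808, 3053, 2908 and 2665 CPM in wild type and at 2970, 2911 and 2776 CPM in homozygous KO. These ranges overlapped almost fully, and the fitted log2 difference of 0.01 had a 95% interval of −0.12 to 0.15. Lef1 (chr3:131110471-131224356) stood at 568, 570, 607 and 484 CPM in wild type, at 573, 458 and 489 CPM in heterozygous KO and at 432, 521 and 447 CPM in homozygous KO. Lef1 had the lowest fitted difference of the 8, −0.26 (SE 0.10), with an unadjusted p of 0.0259 and an adjusted p of 0.0831, and its wild-type and homozygous KO libraries overlapped. The adjusted p of Lef1 was 0.0448 without homozygous KO 2 and 0.0320 without wild type 4, so single libraries decided on which side of 0.05 it fell. The difference was −0.43 within the animals numbered 44 to 51 and −0.00395 within those numbered 56 to 63, where each group of this comparison had 1 or 2 libraries. A test of whether the homozygous KO difference of Lef1 differed between the 2 runs of animals gave 0.43 on the log2 scale with an adjusted p of 0.371, and rests on 1 homozygous KO library in one run and 1 wild-type library in the other.

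Bcl11b (chr12:107910403-108003602), the commitment factor, ranged from 999 to 1180 CPM in wild type and stood at 1091, 964 and 970 CPM in homozygous KO. Its fitted difference was −0.12 with an adjusted p of 0.206. Ets1 (chr9:32636221-32757820) stood at 1560, 1580, 1604 and 1567 CPM in wild type and at 1448, 1568 and 1483 CPM in homozygous KO. Ets1 was the steadiest of the 9 genes in wild type, with a coefficient of variation of 1.24%, and its difference of −0.07 did not pass the test (adjusted p = 0.343). Ikzf1 (chr11:11685003-11772926) had a fitted difference of 0.05 with a 95% interval of −0.07 to 0.17. Runx1 (chr16:92601466-92826149) lay between 288 and 343 CPM in wild type and between 321 and 342 CPM in homozygous KO, a difference of 0.07 with an adjusted p of 0.478.

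Myb (chr10:21124935-21160984), a factor of proliferating immature thymocytes, was the most variable of the 9 in homozygous KO, with a coefficient of variation of 15.4%. It stood at 598, 808 and 768 CPM in homozygous KO, at 549, 606 and 697 CPM in heterozygous KO and at 729, 650, 752 and 649 CPM in wild type. The low homozygous KO value was that of homozygous KO 1. The fitted difference against wild type was 0.06 with a 95% interval of −0.18 to 0.30. It was −0.25 within the animals numbered 44 to 51 and 0.28 within those numbered 56 to 63, and the difference between these values, 0.53 in the fit, had an unadjusted p of 0.00643 and an adjusted p of 0.327. Homozygous KO 1 is the only homozygous KO library numbered 44 to 51, so this contrast between the runs cannot be told apart from that library's low value.

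In heterozygous KO against wild type none of the 9 factors passed the test, at either an adjusted or an unadjusted p under 0.05 in edgeR or at an adjusted p under 0.05 in DESeq2. Only 0.0154% of all tested features, 3 in number, passed in this comparison. The 8 factors other than Bach2 had fitted differences between −0.17 for Myb and 0.05 for Ikzf1, and their intervals reached from −0.42 to 0.17. Usp7 itself had a fitted difference of −0.34 here with an adjusted p of 0.608, although its libraries did not overlap.

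In homozygous KO against heterozygous KO, 17.1% of all tested features passed, and none of the 8 factors did in edgeR. Satb1 was nearest, with a log2 difference of −0.17, an unadjusted p of 0.0115 and an adjusted p of 0.0618, and it passed in DESeq2 with an adjusted p of 0.00647. Myb had the highest fitted difference, 0.23, with a 95% interval of −0.03 to 0.49. The intervals of the 8 reached from −0.35 to 0.49.

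Fitted differences covered a wider range among the close relatives of these factors. Of the 12 other members of the same families that were tested, 4 rose, 5 fell and 3 did not pass in homozygous KO against wild type (25.8% of all tested features passed), with a median log2 difference of −0.09 beside −0.01 over all tested features. Runx2 was not analysed here. Most relatives that fell were at low levels in wild-type thymus.

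Bcl11a, the paralog of Bcl11b that serves B cells and dendritic cells, fell from 6.26, 6.11, 7.34 and 4.50 CPM in wild type to 0.599, 0.597 and 0.842 CPM in homozygous KO. Its log2 difference of −3.16 was larger in size than that of Bach2, while Bcl11b differed by −0.12. The TCF/LEF relatives Tcf7l1 and Tcf7l2, which act in stem cells and in the gut, fell by 1.03 and 0.83 on the log2 scale. None of these 3 genes exceeded 10 CPM in any library.

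Ets2 was the family member whose fall involved the most reads. It stood at 846, 854, 945 and 850 CPM in wild type, at 779, 891 and 882 CPM in heterozygous KO and at 206, 327 and 377 CPM in homozygous KO. The log2 difference was −1.53 (SE 0.16) with an adjusted p of 7.22e-05, while Ets1, which has a closely related DNA-binding domain, had a difference of −0.07. Ikzf4, the gene of Eos, fell by 0.63 with an adjusted p of 0.0177. Ikzf2, Ikzf3 and Ikzf5 had log2 differences of −0.14, −0.05 and 0.17 and did not pass.

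Mybl1 and Mybl2, relatives of Myb that act in germ cells and in dividing cells, rose by 0.97 and 0.59 on the log2 scale. Mybl1 stood at 29.3, 14.9 and 18.2 CPM in homozygous KO, all above the wild-type range of 10.1 to 11.5 CPM. Runx3, which sets the CD8 lineage, rose by 0.50 with an adjusted p of 0.00284, from a wild-type range of 34.4 to 45.1 CPM to 50.4, 62.2 and 56.6 CPM. Bach1, the ubiquitous relative of Bach2, had the opposite direction to Bach2: it stood at 302, 393 and 387 CPM in homozygous KO against 251, 246, 258 and 326 CPM in wild type, and rose by 0.42 (SE 0.12) with an adjusted p of 0.0305. Wild type 4 overlapped the homozygous KO range of Bach1.

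**Figure D4:**
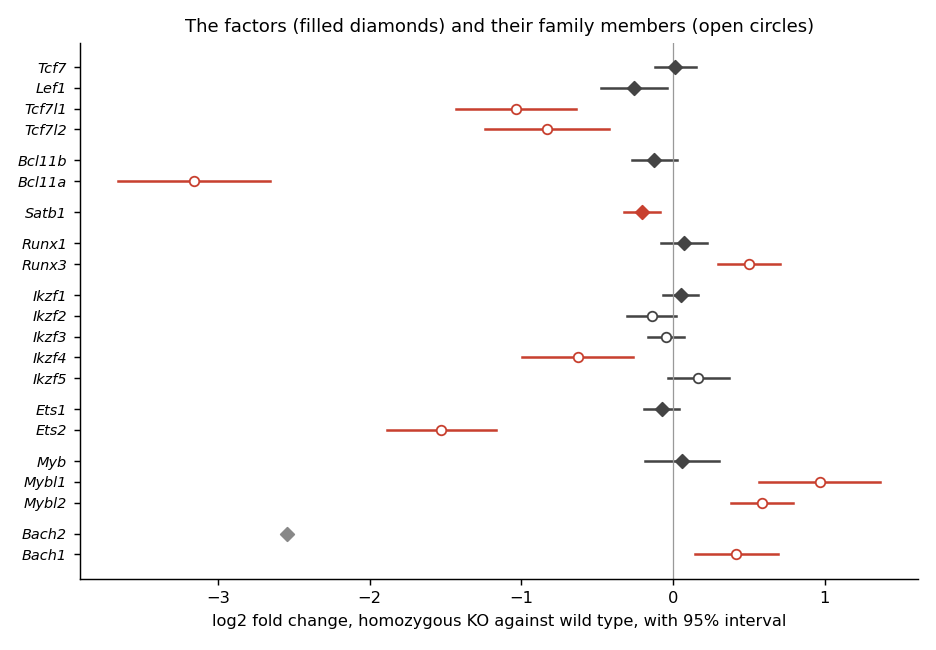
Fitted log2 fold changes in homozygous KO against wild type, with 95% intervals, of the 9 factors (filled diamonds) and of 12 relatives of the same families (open circles), grouped by family. Red marks an adjusted p under 0.05; Bach2 is grey and has no interval because it was picked for its fall. The 8 other factors lie near 0, from −0.26 to 0.07, while the relatives run from −3.16 for Bcl11a to 0.97 for Mybl1.

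Partners of TCF1 and LEF1 moved in both directions. Of 21 tested cofactor and Wnt pathway genes, 3 rose, 5 fell and 13 did not pass, with a median of 0.03, beside 25.8% of all tested features that passed. The TLE co-repressors split: Tle1 rose by 1.25, from a wild-type range of 6.93 to 10.4 CPM to 21.5, 22.8 and 19.5 CPM, and Aes, a short relative of the TLE genes, rose by 0.37, whereas Tle2 fell by 0.88. Jup, which encodes plakoglobin, the relative of β-catenin, fell by 0.92, from between 161 and 190 CPM to 105, 96.3 and 81.0 CPM. Nkd1, an inhibitor in the Wnt pathway that is itself induced by it, fell by 2.92 and stood at most at 0.451 CPM in the 3 homozygous KO libraries. The histone deacetylase gene Hdac2 rose by 0.30. In heterozygous KO against wild type none of the 21 passed in edgeR, 2 had an unadjusted p under 0.05, and DESeq2 called 1.

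Of 26 other T-lineage transcription factors that were tested, 5 rose, 5 fell and 16 did not pass in homozygous KO against wild type, with a median of 0.07, beside the 12.5% of all tested features that rose and 13.2% that fell. Notch1, the receptor and transcription factor that drives early T-cell development, rose by 1.06, from 1210, 1128, 1032 and 1022 CPM in wild type to 1750, 2767 and 2341 CPM in homozygous KO. Nfatc3 rose by 0.45 and Gfi1, a repressor of early thymocytes, by 0.24. Of the 5 that fell, Zbtb7b, Klf2 and Egr1 fell most. Zbtb7b, which encodes ThPOK and sets the CD4 lineage, fell by 3.03. Klf2, a factor of thymic exit, fell by 1.58, and Egr1, induced by T-cell receptor signals, by 1.41. Zbtb7b stood at 6.09, 2.31 and 1.16 CPM in homozygous KO against 24.7, 24.5, 36.0 and 19.5 CPM in wild type. Klf2 is also on the list of mature single-positive markers described further on.

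The AP-1 and small MAF genes encode proteins that share sites or pair with BACH2. Of 17 tested, 1 rose, 3 fell and 13 did not pass, with a median of −0.22, a share called that is near the 25.8% of all tested features. Nfe2l2, which encodes NRF2, an activator at sites that BACH factors also bind, rose by 0.35 with an adjusted p of 0.0188. Fosb fell by 2.31, from a wild-type range of 5.76 to 18.2 CPM to 1.20, 3.33 and 3.15 CPM, and Batf3 and Batf fell by 2.24 and 0.65. The summed level of the list moved with animal number as well: it was 426 to 560 CPM in the libraries numbered 44 to 51 and 561 to 869 CPM in those numbered 56 to 63, whatever the genotype. With that split as a term in the fit, 10 of the 17 passed, beside 5303 of all 19511 tested features.

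Genes known to be repressed by BACH factors did not shift in 1 direction in homozygous KO thymus. Of 16 listed genes 13 were tested: 3 rose, 3 fell and 7 did not pass, with a median of −0.19, beside 25.8% of all tested features that passed. Gzmb, the gene of granzyme B, rose by 3.08, from between 2.97 and 3.66 CPM to 14.1, 46.5 and 19.4 CPM. The heme oxygenase gene Hmox1 rose by 0.96 and Gclm, of glutathione synthesis, by 0.44. Prdm1, which encodes BLIMP1 and is the classical repressed target of BACH2 in B cells, fell by 1.50, and the homing receptors S1pr1 and Ccr4 fell by 2.12 and 1.62. S1pr1 is also on the mature single-positive marker list.

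Cell type markers differed between the genotypes alongside Bach2. In bulk samples, fewer cells of a type and less RNA per cell cannot be told apart. In homozygous KO against wild type, 12.5% of all tested features rose and 13.2% fell. Of the 13 B-cell markers, 11 fell and 2 did not pass. Their summed level was 297 to 338 CPM in homozygous KO, 357 to 379 CPM in heterozygous KO and 339 to 411 CPM in wild type, and Ighm, which hardly differed (log2 difference −0.02), made up most of it. The B-cell surface gene Ms4a1 (CD20) and the light chain gene Igkc were at or under 3 counts in every homozygous KO library. Within wild type, wild type 2 held 8.04 CPM of Ms4a1 against 2.92 to 3.58 CPM in the other 3, and its Bach2 level of 47.1 CPM was inside the range of those 3. The part of B cells in the difference of Bach2 was not tested.

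In homozygous KO against wild type 13.2% of all tested features fell, and all 10 mature single-positive thymocyte markers reported here did. Their summed level was 51.4 to 117 CPM in homozygous KO, 258 to 295 CPM in heterozygous KO and 258 to 361 CPM in wild type, with none of them at 0. Homozygous KO 1 retained more of these markers than the other 2 homozygous KO libraries: Ccr7, a chemokine receptor of mature thymocytes, was 13.0 CPM in it and 1.35 and 1.14 CPM in the others, against 33.7 to 56.7 CPM in wild type. Its Bach2 level of 8.44 CPM lay between those of homozygous KO 2 and 3. Zbtb7b, which is not on the marker list, was also highest in homozygous KO 1 of the 3. The part of mature thymocytes in the differences of Bach2 and Zbtb7b was not tested.

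Of the 12 double-positive thymocyte markers, 2 rose, 3 fell and 7 did not pass, beside 25.8% of all tested features that passed. The median log2 difference of these markers was −0.06, and their summed level was 9399 to 9746 CPM in homozygous KO against 11204 to 12687 CPM in wild type. Rag1, which at the levels given above made up a large part of this sum, fell by 0.85. Cd8a rose by 0.26, while Cd4 had a difference of 0.16 that did not pass. Of the 12 early progenitor and double-negative markers, 1 rose and 7 fell, and the summed level was 104 to 338 CPM in homozygous KO and 203 to 340 CPM in wild type. Homozygous KO 1 was the lowest library in this sum and also the lowest homozygous KO library for Myb and Notch1, whose relation to it was not tested.

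In homozygous KO against wild type, 12.5% of all tested features rose and 13.2% fell. Of 16 myeloid markers, 6 rose, the granule genes of neutrophils such as S100a8, and 6 fell, the macrophage genes such as C1qa. Erythroid markers ranged from 232 to 2307 CPM in homozygous KO and from 356 to 1871 CPM in wild type without separating the genotypes, and 2 of them passed, both higher. Of 11 thymic epithelial markers 2 rose, 1 fell and 8 did not pass, and of 10 mesenchymal markers 4 rose, 1 fell and 5 did not pass. The share of epithelial markers called was near the 25.8% of all tested features. For Gzmb the homozygous KO library with the most granule gene reads, homozygous KO 2 (S100a8 at 65.6 CPM), was also the highest at 46.5 CPM, and the part of myeloid cells in that rise was not tested.

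**Figure D5:**
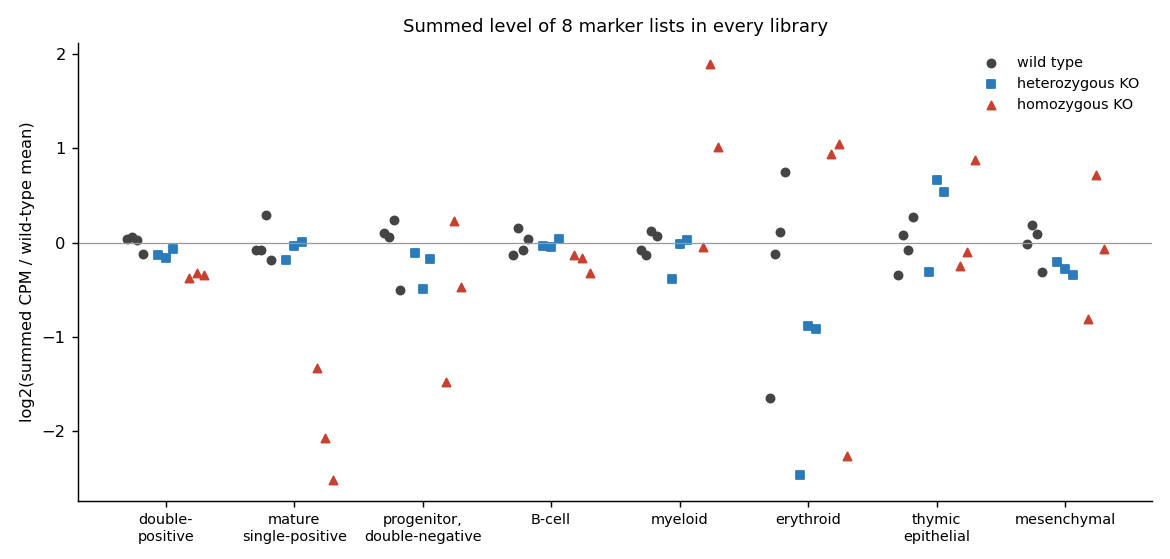
Summed CPM of 8 lists of cell type markers in every library, as log2 of the sum over the mean sum of the wild-type libraries. Points are libraries by genotype. The mature single-positive and double-positive sums of all 3 homozygous KO libraries lie below every wild-type library, and the erythroid sums spread widely within wild type and within homozygous KO. Rag1 is a large part of the double-positive sum, and Ighm is most of the B-cell sum.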

How the data were processed

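Raw read counts per gene, as deposited by the authors, were used for 10 mouse thymus libraries. The submitters' processing notes name CASAVA, STAR 2.4.1d and HTSeq 0.6.1p1 with builds NCBIM37 and mm9. The methods of the study describe BWA and HT-seq with a reference for human samples, and name no mouse libraries. The annotation release and strand setting are not given in the sources used here. Ensembl IDs were matched to GENCODE M21 symbols (92.4% of tested features), whose GRCm38 coordinates and exon lengths are printed although counting was on mm9. Counts were filtered (filterByExpr), TMM-scaled and tested with edgeR 4.0.16 (quasi-likelihood test, 1 fit over all 10 libraries, Benjamini-Hochberg over 19511 features, called under 0.05) in R 4.3.3, with DESeq2 1.42.0 as an alternative, and the fit was tested on simulated data. The common biological coefficient of variation was 0.207. P-values measure the spread between these samples. Groups follow the titles; wild type 3 and 4 have 1 wt in the title and column names that add het. Members and gene lists were chosen with earlier results of these data known. The results of 2 listed genes are not reported here. Named genes were all members, all tested family members, the 3 largest rises and falls called in each other regulator list, the 3 profiles nearest to Bach2, and Usp7; marker genes illustrate their lists. Log2 CPM used a prior count of 2.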

Additional observations from a re-analysis of the deposited data

Results flagged for a closer look

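In 3 of the named genes 1 wild-type library stood apart from the other 3 by Dixon's criterion for 4 samples, which flags about 1 group in 20 by chance. Many genes are named, so a few such flags can arise by chance alone. Bach1 was 326 CPM in wild type 4 and 246 to 258 CPM in the other wild-type libraries. Ets2 was 945 CPM in wild type 3 and 846 to 854 CPM in the others. Gzmb was 3.66 CPM in wild type 1 and 2.97 to 3.03 CPM in the others. None of the 9 factors themselves met this criterion. Without wild type 4, wild type 3 or wild type 1, the Bach2 difference in homozygous KO stayed within the range of −2.64 to −2.44 given above.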

How the results depend on the processing

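Over all alternatives, and leaving aside Bach2 in homozygous KO, which has no test, 380 of the values of single factors kept their direction and their side of the threshold, 3 lost a call, 11 gained one and 23 changed sign, the last all for differences near 0. The number of the 8 factors called in homozygous KO against wild type, 1 in the report, was 4 with library totals in place of TMM factors and 0 with the replicate block, with only the wild types that have 1 wt in the title, and with only the 2 groups compared; leaving out a library gave 1 to 2. In homozygous KO against heterozygous KO it was 1, Satb1, with library totals, DESeq2, no filter, the animal-number block or the wild types that have 2 wt in the title, and 0 to 1 when a library was left out, the 1 being Myb without homozygous KO 1 (adjusted p = 0.0429). Library totals shifted the median of all features from −0.01 to −0.11, called Satb1, Lef1, Bcl11b and Ets1, and left 1435 calls higher and 3506 lower in place of 2446 and 2584. Satb1 lost its call with the replicate block (adjusted p = 0.0703). The replicate numbers did not pair the samples (correlations of same-numbered deviations from −0.104 to 0.225), and the block gave 4934 calls in place of 5030. The wild types with 1 wt in the title gave 2670 calls. The animal-number block called 16 in place of 10 other T-lineage factors and 10 in place of 4 AP-1 genes, and 5303 in place of 5030 of all tested features. DESeq2 called 58 features in place of 3 in heterozygous KO against wild type. The causes of these changes were not tested.

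For homozygous KO against wild type, library totals gave −0.0808 for Tcf7, −0.0204 for Runx1, −0.0429 for Ikzf1 and −0.0323 for Myb. Tcf7 was −0.000406 with no filter, −0.0182 with the replicate block, −0.0225 with the wild types that have 2 wt, and −0.0193 to 0.0465 when a library was left out. Runx1 was −0.0259 with the wild types that have 2 wt. Myb was −0.0191 with the animal-number block and −0.0186 to 0.178 when a library was left out. For heterozygous KO against wild type, the wild types with 1 wt gave 0.000451 for Tcf7 and 0.0610 for Runx1, and leaving out a library gave −0.0874 to 0.000987 for Runx1 and −0.0405 to 0.0217 for Ets1. For homozygous KO against heterozygous KO, library totals gave −0.0365 for Tcf7, the Xist covariate 0.0132 and leaving out a library −0.0971 to 0.00555 for Bcl11b, and RLE factors 0.000951, DESeq2 0.00118 and leaving out a library −0.0369 to 0.0309 for Ikzf1.

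With 3 or 4 libraries a group, precision depends on each gene's spread: the 95% interval of Satb1 in homozygous KO against wild type ran from −0.32 to −0.09 and that of Myb from −0.18 to 0.30. Bach2 was counted by at least 709 reads in every library.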
